A study of Mus musculus with 24 samples.

Results

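The report concerns 5 mouse genes of the prolactin and growth hormone family: the proliferins Prl2c2, Prl2c3 and Prl2c4, prolactin itself (Prl) and growth hormone (Gh). They were measured by every probe that the platform annotation of the Illumina MouseWG-6 v2.0 array assigns to these genes, which gave 6 probes of 45281 for 5 genes of 19057 with a single symbol. Prl2c2 had 2 probes and each other gene had 1. The proliferins were chosen by their level in an earlier analysis of the same arrays, where they were higher in female than in male cerebellum and set the female cerebellum apart from the other groups. For these genes the difference between the sexes in cerebellum, its contrast with frontal cortex and the tissue difference in females are therefore given as descriptions without a test. Prl2c2 was noticed by the contrast between the tissues as well, so its sex difference in frontal cortex and its tissue difference in males, which are parts of that contrast, are descriptions too. Prl and Gh were placed beside them as members of the same hormone family.

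RNA was taken from mice of the inbred strain SJL/JOrlCrl that had received no treatment, at 10 weeks of age. There were 6 females and 6 males, described as littermates, and each of the 12 animals gave its frontal cortex and its cerebellum. This gave 4 groups of 6 arrays: female cerebellum, male cerebellum, female frontal cortex and male frontal cortex. The stated aim was to find transcripts particular to the female cerebellum.

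Prolactin and growth hormone are made mainly by lactotroph and somatotroph cells of the anterior pituitary, and both act through cytokine-type receptors that signal by the kinase JAK2 and STAT5. In rodents the family has expanded into a large cluster of prolactin-related genes, most of them known from the placenta. The proliferins are secreted glycoproteins of placental giant cells and of growth-stimulated fibroblasts in culture, and are known to promote vessel growth and to bind the receptor Igf2r. The proliferin genes are close copies of each other.

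The degree of that similarity is shown by the promoters of Prl2c3 and of Prl2c5, a proliferin that is not among the 5 genes. Both are shown as RefSeq holds them in build GRCm38.p6, from 250 bases before the start of the gene to 50 after it. Of the 5 genes, 2 had such an entry, Prl2c3 and Prl. The Prl2c3 window lies at chr13:12800030-12800329 on the minus strand and that of Prl2c5 at chr13:13182466-13182765 on the plus strand. Capitals mark the bases that differ when the windows are aligned.
Prl2c3: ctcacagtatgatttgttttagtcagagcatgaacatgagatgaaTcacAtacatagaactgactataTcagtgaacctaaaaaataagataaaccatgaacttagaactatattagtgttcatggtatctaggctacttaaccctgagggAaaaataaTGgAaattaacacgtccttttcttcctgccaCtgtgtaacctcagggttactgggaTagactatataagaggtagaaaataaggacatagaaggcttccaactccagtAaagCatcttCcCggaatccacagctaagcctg
Prl2c5: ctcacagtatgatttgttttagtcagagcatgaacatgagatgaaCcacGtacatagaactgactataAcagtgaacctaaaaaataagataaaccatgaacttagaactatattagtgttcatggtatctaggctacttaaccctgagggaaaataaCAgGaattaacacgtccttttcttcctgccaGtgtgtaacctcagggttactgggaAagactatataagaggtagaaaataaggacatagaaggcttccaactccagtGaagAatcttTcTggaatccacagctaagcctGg
Of 301 aligned columns 287 were identical (95.3%), with 12 substitutions and 2 gap columns.

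The Prl promoter, at chr13:27057320-27057619 on the plus strand, is shown because Prl differs from the proliferins in its pattern across these arrays. Its capitals mark matches to TATAAA, one form of the TATA box, and to TATNCAT. The latter is the core of the motif of the pituitary factor Pit-1 (Pou1f1), and both were searched on both strands.
Prl: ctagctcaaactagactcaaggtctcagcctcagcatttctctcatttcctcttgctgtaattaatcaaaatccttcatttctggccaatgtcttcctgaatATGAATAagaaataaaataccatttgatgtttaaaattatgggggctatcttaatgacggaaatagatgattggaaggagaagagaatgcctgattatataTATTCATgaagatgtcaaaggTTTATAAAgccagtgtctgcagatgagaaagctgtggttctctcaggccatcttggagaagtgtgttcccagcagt
TATNCAT matched at -148 to -142 on the reverse strand and at -47 to -41 on the forward strand, counted from the gene's start. TATAAA matched at -24 to -19 on the forward strand and, overlapping that match, at -26 to -21 on the reverse strand. Neither exact string was found in the printed windows of Prl2c3 or Prl2c5. Both of these windows hold TATATAAG, which the search for TATAAA could not match, so no lack of a TATA box can be read from it. Of 32851 promoter windows of this length, 13.6% held TATAAA and 8.84% held TATNCAT.

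The scanner reported a mean bead intensity per probe and a detection p, the share of negative controls at or above the probe. A probe is called detected below a detection p of 0.05. Between 18099 and 19927 probes were detected per array, and the dimmest detected signal of an array ran from 73.2 to 79.8 units. Differences were fitted with limma on background-corrected, quantile-normalized log2 intensity for the 21113 probes detected on at least 6 of 24 arrays, and p-values were adjusted over all of them, with a threshold of 0.05. The measured cerebellum and frontal cortex markers followed the tissue labels, with 10 of 10 measured cerebellum markers higher and 10 of 10 measured frontal cortex markers lower in cerebellum. Over all probes 36.8% were higher and 31.0% lower. Of 14 cerebellum markers on the array Pcp4, Calb1, Cbln3 and Car8 were detected on 0 arrays, as was Neurod6 of 11 frontal cortex markers. Xist was detected by its brightest probe on all 12 female arrays and on 2 of 12 male arrays, where its highest level (4.76 on the log2 scale) was below the lowest female level (6.52).

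All 6 probes passed this filter, but Prl2c2 and Prl2c4 reached 6 arrays only through the female cerebellum. The 3 proliferin probes with a group pattern were dim, between 61.3 and 113.1 units on any array, close to the detection limit. Their means came from 25 to 65 beads, with a median standard error over beads of 3.20 to 3.28 units. Because the genes are close copies, a probe annotated to one may also bind transcripts of another, and which proliferin was measured is uncertain. The annotation's Entrez ID for Prl2c4 was not found in the RefSeq table used here, which lists that symbol as a synonym of Prl2c3.

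Except on the second Prl2c2 probe, described below, proliferin signal was highest in female cerebellum, lower in male cerebellum, and mostly undetected in frontal cortex of either sex. The Prl2c3 probe read 95.8, 108.02 and 113.1 units (lowest, median and highest of 6) in female cerebellum, and 80.6, 83.1 and 92.2 in male cerebellum. In female frontal cortex it read 63.3, 72.1 and 81.6 units and was detected on 1 of 6 arrays, and in male frontal cortex it read 63.1, 71.1 and 71.6 and was detected on none. All 12 cerebellum arrays detected it, and the female and male cerebellum ranges did not overlap. The same held for 0.388% of all probes after normalization. Nothing is read from it here, since this contrast chose the gene.

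The first Prl2c2 probe, by which the gene was noticed, was also higher in female than in male cerebellum but was closer to the limit. It read 86.0, 91.2 and 98.5 units in female cerebellum, with detection on 6 of 6 arrays, and 64.8, 74.1 and 82.7 in male cerebellum, with detection on 3 of 6. In frontal cortex it read 62.4, 70.4 and 75.8 units in females and 65.1, 67.6 and 75.2 in males, with detection on none. Here only the female cerebellum stood clear of the other groups, and the male cerebellum overlapped both frontal cortex groups. The gene was chosen by this contrast, so nothing is read from the separation.

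The Prl2c4 probe was again highest in female cerebellum, at 81.6, 85.7 and 93.3 units, with detection on 6 of 6 arrays. Male cerebellum gave 73.9, 76.7 and 81.4 units, with 5 of 6 detected. Frontal cortex gave 61.3, 65.3 and 74.4 units in females and 61.3, 63.4 and 67.0 in males, with none detected. The sexes overlapped in cerebellum on the normalized scale, and after normalization every cerebellum array lay above every frontal cortex array. How many other probes did so over both sexes was not counted, and in males alone 38.6% of all probes had tissues that did not overlap. Nothing is read from this separation, since the cerebellum arrays took part in the choice of the gene.

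**Figure D1:**
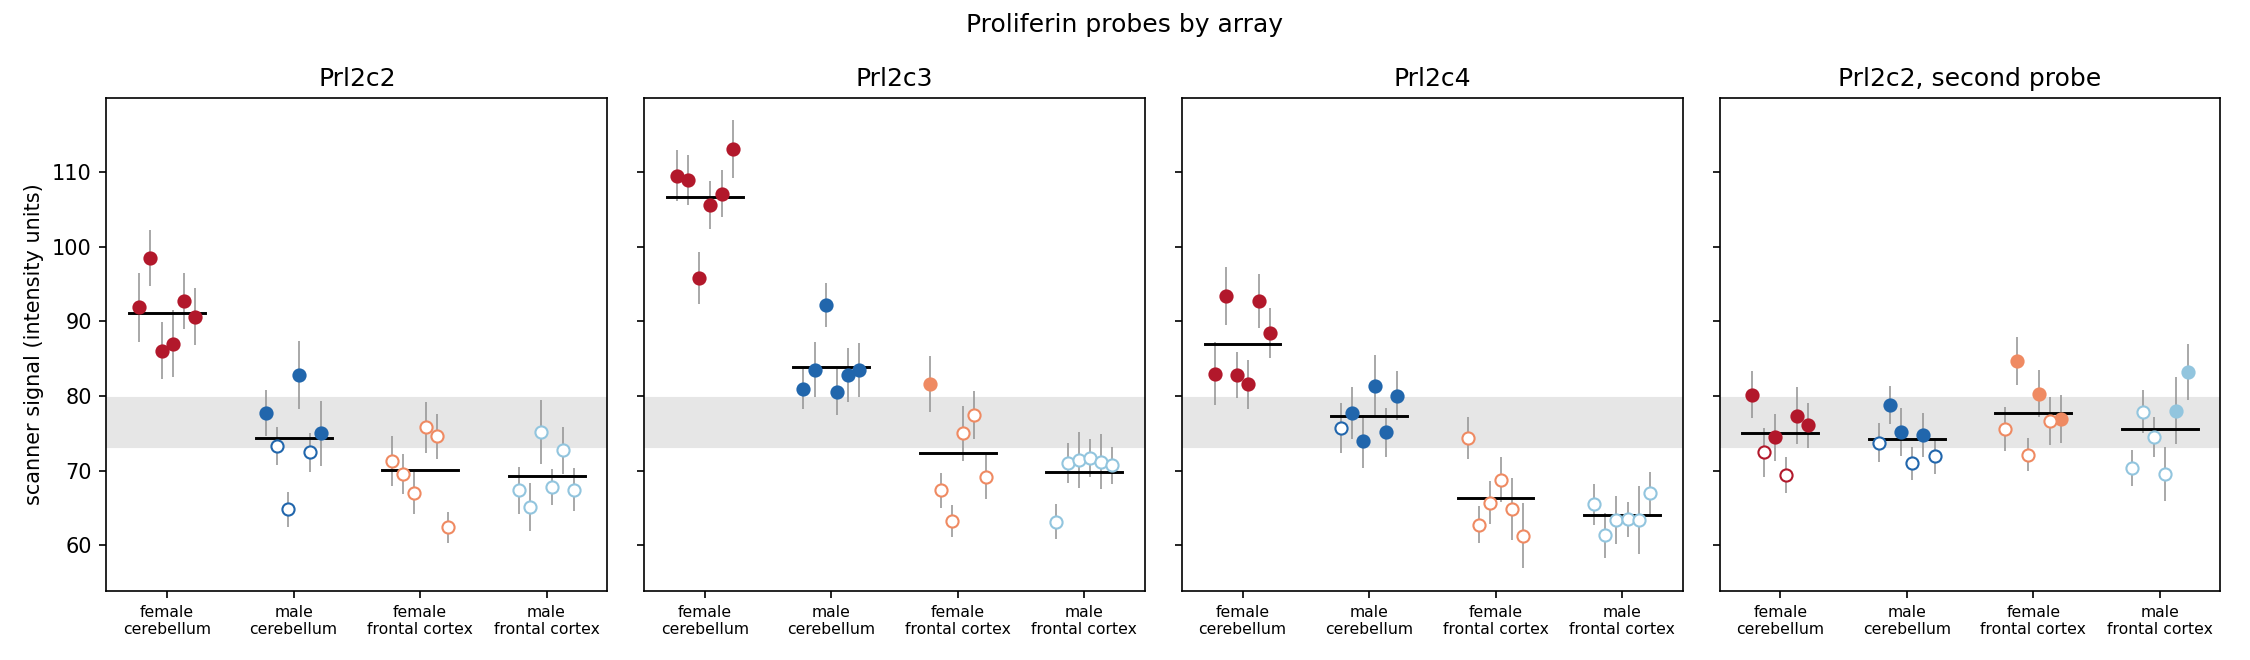
Scanner signal (intensity units, linear axis that does not start at 0) of the proliferin probes on each array, by group of 6. Filled points are detected, open points are not, grey bars are the standard error over beads, black lines are group means and the grey band is the range of the dimmest detected signal of an array (73.2 to 79.8). Prl2c3 lies between 95.8 and 113.1 in female cerebellum, above all other arrays, while the second Prl2c2 probe shows no separation of groups.

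The tissue difference in males was tested for Prl2c3, although the male cerebellum arrays were the lower group of the contrast that chose the gene. For Prl2c4, which reached the filter only through the female cerebellum, it is a description without a test. Of all probes tested 58.1% passed in this comparison and 31.0% were higher in cerebellum, so such a call is common on these arrays. Prl2c3 was at least 1.30-fold higher in male cerebellum (log2 difference 0.68 ± 0.10 SE, adjusted p = 2.3e-06, n = 6 and 6). Prl2c4 was at least 1.05-fold higher (0.52 ± 0.09). The male groups did not overlap for these probes, as was so for 38.6% of all probes. The folds are lower bounds, set against the dimmest detected level of each array, because no male frontal cortex array detected the probes. They belong to the background-corrected scale: without background correction the differences were 0.26 for Prl2c3 (adjusted p = 5.3e-05) and 0.25 for Prl2c4. On the authors' values the differences were 0.31 for each. In bulk tissue, fewer cells of a type and less RNA per cell cannot be told apart.

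The first Prl2c2 probe, described without a test, had a log2 difference of 0.25 ± 0.10 SE between the tissues in males, with overlapping groups, and 0.11 without background correction. It fell to 0.18 without male cerebellum 4. Within the label batches, a tag in the labels whose meaning is not stated, the differences of Prl2c2, Prl2c3 and Prl2c4 were 0.34, 0.66 and 0.46 in batch a and 0.20, 0.70 and 0.56 in batch b. In batch a, with 2 arrays per group, the adjusted p was 0.018 for Prl2c3.

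The tissue difference in females, given as a description, was larger on each of these probes. It was 1.33 for Prl2c3 (at least 2.17-fold), 0.96 for Prl2c2 (at least 1.61-fold) and 0.91 for Prl2c4 (at least 1.45-fold), on the log2 scale. Without background correction these differences were 0.53, 0.36 and 0.37, below the log2 value of the bounds given, which belong to the background-corrected scale. Every female cerebellum array lay above every female frontal cortex array for all of them. The share of all probes that did so was not counted, and in males 38.6% of all probes had tissues that did not overlap. The female cerebellum also took part in the choice of these genes, so nothing is read from this separation. The median tissue difference over all probes was 0.03 in males and 0.03 in females.

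The values by which the proliferins were noticed were those between the sexes in cerebellum. Prl2c3 was 1.68-fold higher in females (log2 difference 0.75 ± 0.10 SE), Prl2c2 at least 1.54-fold (0.72 ± 0.10) and Prl2c4 1.35-fold (0.43 ± 0.09). In this contrast 0.156% of all probes passed the threshold and 0.388% had groups that did not overlap, and nothing is read from the members here, since the contrast chose them. The differences were nearly equal in the label batches, at 0.79, 0.72 and 0.42 in batch a and 0.73, 0.72 and 0.44 in batch b for Prl2c3, Prl2c2 and Prl2c4. Their size depends on the background correction: without any, they were 0.30, 0.26 and 0.15.

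In frontal cortex Prl2c3 did not pass the test between the sexes. Prl2c4 is described without a test here, because it reached the filter only through the female cerebellum and no frontal cortex array detected it. The log2 differences were 0.10 ± 0.10 SE for Prl2c3 (adjusted p = 0.89) and 0.05 ± 0.09 for Prl2c4. For the first Prl2c2 probe the difference, a description, was 0.00 ± 0.10. The 95% interval for Prl2c3 ran from -0.12 to 0.31. In this contrast 0.171% of all probes passed the threshold. On the 12 frontal cortex arrays Prl2c3 was detected on 1 and Prl2c4 and the first Prl2c2 probe on none, so a difference below the detection limit would not be seen.

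The second Prl2c2 probe did not repeat the pattern of the first. It read 69.4, 75.3 and 80.2 units in female cerebellum and 70.9, 74.3 and 78.8 in male cerebellum. In frontal cortex it read 72.1, 76.8 and 84.7 units in females and 69.5, 76.2 and 83.2 in males. It was detected on 4, 3, 3 and 2 arrays of these groups, which overlapped throughout. Its tissue difference in males was 0.03 (95% interval -0.17 to 0.23, adjusted p = 0.83), and its difference between the sexes in cerebellum was 0.03 ± 0.10.

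Across the 24 arrays the other proliferin probes ran together, and the second Prl2c2 probe ran with none of them. Pearson correlations were 0.93 for Prl2c3 with Prl2c4, 0.91 for Prl2c2 with Prl2c4 and 0.87 for Prl2c2 with Prl2c3. They fell to 0.32, 0.57 and -0.06 once the group means were removed, so most of the shared pattern lay between groups. Those groups include the female cerebellum, by which the genes were chosen, so the correlations of levels are no independent sign of agreement. The second Prl2c2 probe correlated at 0.03 with the first probe, 0.12 with Prl2c3 and 0.07 with Prl2c4.

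**Figure D2:**
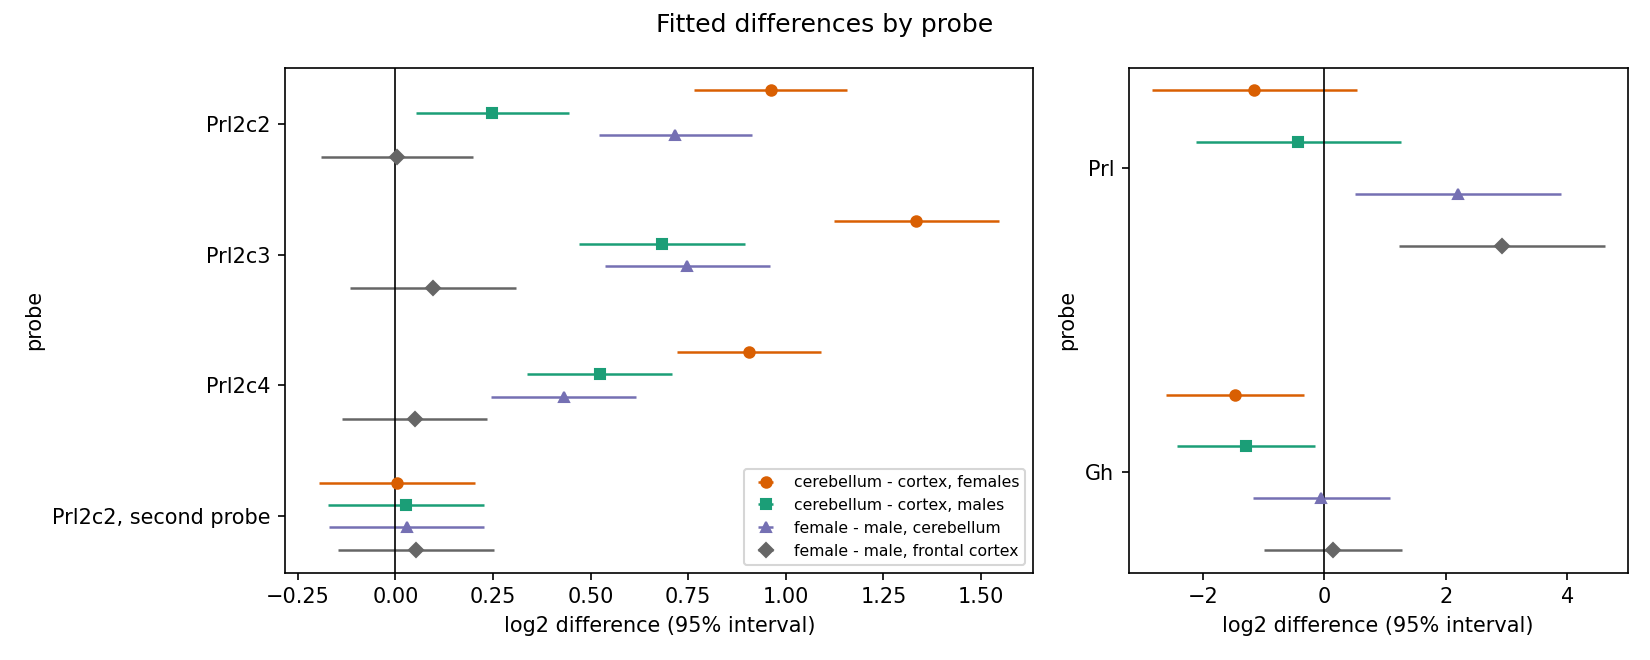
Fitted log2 differences with 95% intervals for the 4 proliferin probes (left) and for Prl and Gh (right, on a wider axis), each between the tissues by sex and between the sexes by tissue. The left panel shows Prl2c3 at 1.33 in females and 0.68 in males between tissues, and the second Prl2c2 probe at 0 within its intervals throughout.

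The other prolactin-family genes stayed below the filter. The array held 25 probes of 20 further family genes, and none reached 6 detected arrays. Detection occurred for 3 of these genes, Prl8a9 on 2 arrays, and Prl3d3 and Prl8a2 on 1 each. The proliferin relatives Prl2c5 and Prl2c1 were detected on 0 arrays, with highest signals of 70.6 and 70.9 units. On chromosome 13, Prl2c3 and Prl2c2 are separated in the RefSeq annotation by 4 genes and Prl2c2 and Prl2c5 by 6, of which 0 are protein coding.

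Several other transcripts had level patterns as close to a proliferin probe as its paralogs, as correlations across 24 arrays in 4 groups. For Prl2c3 the closest after Prl2c4 were Higd2a, Plod2 and Tnrc6a (0.91 each) and Mier1 (0.90). For Prl2c4 they were Tnrc6a and Cox14 (0.93 each), Eprs and Dao (0.92 each), and for Prl2c2, after its paralogs, Ddo (0.86), Bpifb2 (0.84) and S1pr2 (0.83). With the group means removed the closest were Fam161a for Prl2c2 (0.79), Olfr681 for Prl2c3 (0.70) and Dach1 for Prl2c4 (0.77).

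Markers of other cell types that the dissections could hold also differed between the tissues. Of 8 measured choroid plexus markers 6 rose in cerebellum over both sexes and of 5 red cell genes 5 did; over all probes 36.8% were higher and 31.0% lower. In cerebellum none of these 13 passed between the sexes, although the median difference was 0.69 for the choroid plexus list and 0.62 for the red cell list, against 0.00 for all probes. The summed level of the choroid plexus list ran from 824 to 13198 units in female and from 711 to 7575 in male cerebellum, and from 260 to 384 and from 329 to 579 in female and male frontal cortex. For the red cell list it ran from 11680 to 23797 in female and 9062 to 14387 in male cerebellum, and from 5746 to 14442 and 4219 to 10944 in female and male frontal cortex. The part of these cells in the proliferin signal was not tested.

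Prl behaved differently: it was bright in single female arrays of either tissue and near the detection limit in most males. In cerebellum the female signals were 77.2, 135 and 1005 units (lowest, median and highest), with detection on 6 of 6 arrays. Male cerebellum gave 63.7, 68.1 and 77.4 units, with 1 of 6 detected. Female frontal cortex gave 66.1, 488 and 1701 units, with 5 of 6 detected, and male frontal cortex 64.5, 76.5 and 159, with 2 of 6 detected. The spread among females was large, with a log2 SD of 1.78 in cerebellum and 2.57 in frontal cortex.

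The female animals did not keep their rank between tissues. Female 1 had the highest cerebellum signal, 1005 units, and 475 in frontal cortex. Females 5 and 6 had the highest frontal cortex signals, 1701 and 1108 units, with 98.6 and 94.7 in cerebellum. Female 4 had 191 units in cerebellum and 502 in frontal cortex, female 2 had 172 and 87.6, and female 3 was low in both, at 77.2 and 66.1. Prl was thus lower in cerebellum than in frontal cortex in 3 of 6 females, and in 5 of 6 males, in whom the difference was small except in male 2 (70.5 against 159 units). Only 2 males had Prl detected in a tissue, and it was lower in cerebellum in 1 of these 2.

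In frontal cortex Prl was at least 7.03-fold higher in females (log2 difference 2.93 ± 0.82 SE, n = 6 and 6), but with overlapping groups and an adjusted p of 0.15 over all probes. An exact two-sided permutation test over the 924 splits of these arrays, added after the values were seen, gave p = 0.0325 for this probe alone, as 1 of 4 such tests on Prl and Gh. The difference was 1.46 in label batch a and 3.66 in label batch b, and 1.94 (adjusted p = 0.16) without background correction. In cerebellum, where it is a description, it was 2.20 ± 0.82 (at least 3.96-fold), with no overlap after normalization although the scanner signals overlapped at 77.2 and 77.4 units. Of all probes 0.388% had groups that did not overlap in this contrast. The Prl difference in cerebellum was 3.97 in batch a and 1.32 in batch b, 1.57 without female cerebellum 1 and 1.18 without background correction. The tissues did not separate over both sexes (-0.79 ± 0.58, 95% interval -1.99 to 0.40, adjusted p = 0.24), with 0.26 in batch a and -1.32 in batch b.

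Gh was higher in frontal cortex than in cerebellum over both sexes, and its difference between the sexes did not pass the test. Frontal cortex gave 66.8, 154 and 343 units in females and 69.7, 111.9 and 424 in males, with 4 and 5 of 6 arrays detected. Cerebellum gave 65.1, 72.3 and 99.5 units in females and 65.4, 71.6 and 105.1 in males, with 3 and 2 of 6 detected. The tissue ranges overlapped, because female frontal cortex 2 and 3 and male frontal cortex 1 were at 66.8, 72.7 and 69.7 units.

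Over both sexes Gh was at least 2.38-fold lower in cerebellum (log2 difference -1.38 ± 0.39 SE, adjusted p = 0.0028), a comparison in which 67.8% of all probes passed the threshold. The bound belongs to the background-corrected scale, and without background correction the difference was -0.71 (adjusted p = 0.0046). The direction held in 11 of 12 animals, although male 1 and female 2 among them had no detected Gh in either tissue, and in 9 of the 9 animals with Gh detected in a tissue. An exact sign-flip permutation test over the 4096 sign patterns of the animals' differences gave p = 0.00146. By sex the difference was -1.48 in females (adjusted p = 0.024) and -1.29 in males (adjusted p = 0.048), and neither passed with no filter on dim probes (adjusted p = 0.068 and 0.12). It was -0.79 in label batch a (adjusted p = 0.39) and -1.67 in batch b (adjusted p = 0.00062). Between the sexes in frontal cortex it was 0.14 ± 0.55 (95% interval -0.99 to 1.28, adjusted p = 0.99), an interval wide enough to hold a difference of nearly 1 log2 unit either way, and in cerebellum it was -0.05 ± 0.55.

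**Figure D3:**
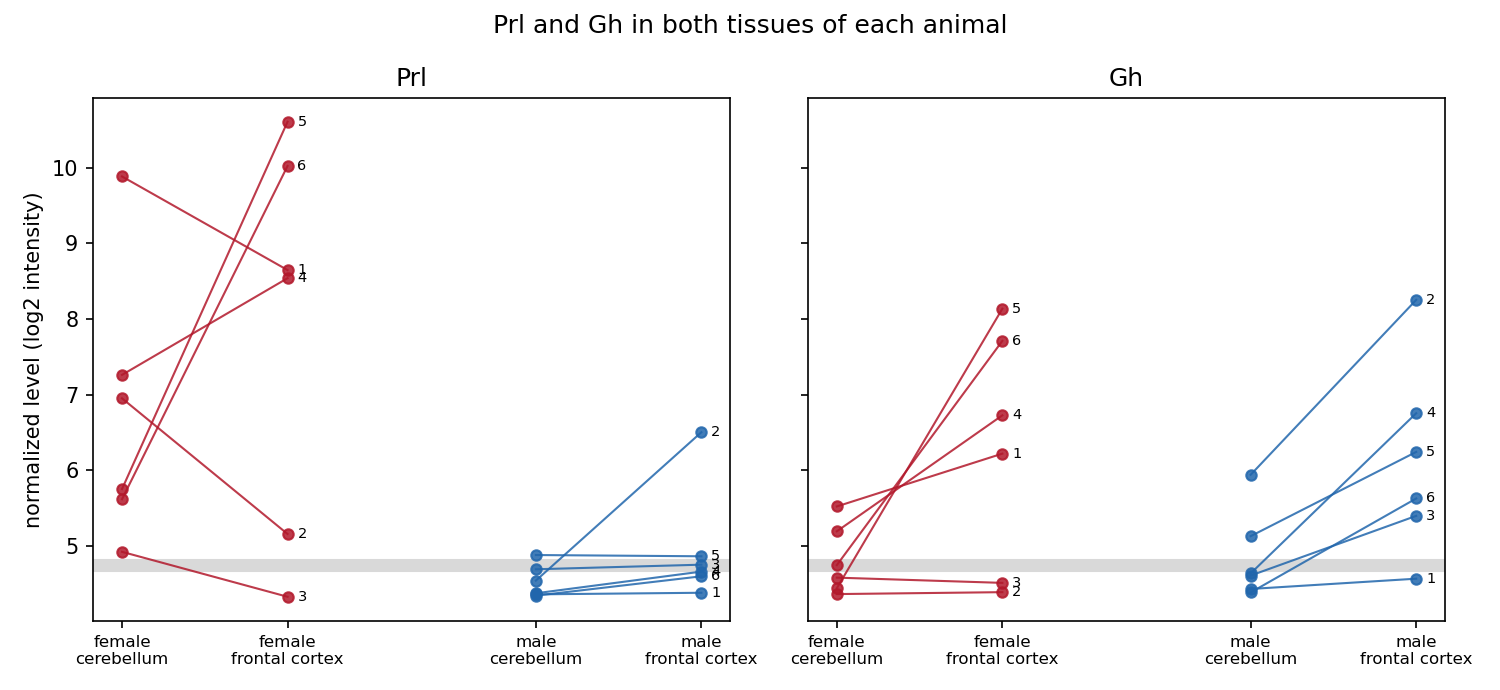
Normalized level (log2 intensity) of Prl and Gh in cerebellum and frontal cortex, with a line joining both tissues of an animal and the replicate number at its frontal cortex point. The grey band is the range of the dimmest detected level of an array (4.67 to 4.81). Gh falls from frontal cortex to cerebellum in 11 of 12 animals, while the female Prl lines cross.

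On the same array Prl and Gh tended to deviate from their group together. The Pearson correlation over 24 arrays was 0.61 for levels and 0.79 for deviations from the group means (Spearman 0.46 and 0.74), and each gene was the other's closest match by deviations among named genes. By detection, both were detected on 10 arrays, Prl without Gh on 4 arrays, all female, and Gh without Prl on 4 arrays, all male. Neither was detected on 6 arrays. By levels the closest transcripts were Pgm3 (0.66) and Pbdc1 (0.65) for Prl, and Myo18b (0.76), Prss23 and Fbxo6 (0.73 each) for Gh.

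**Figure D4:**
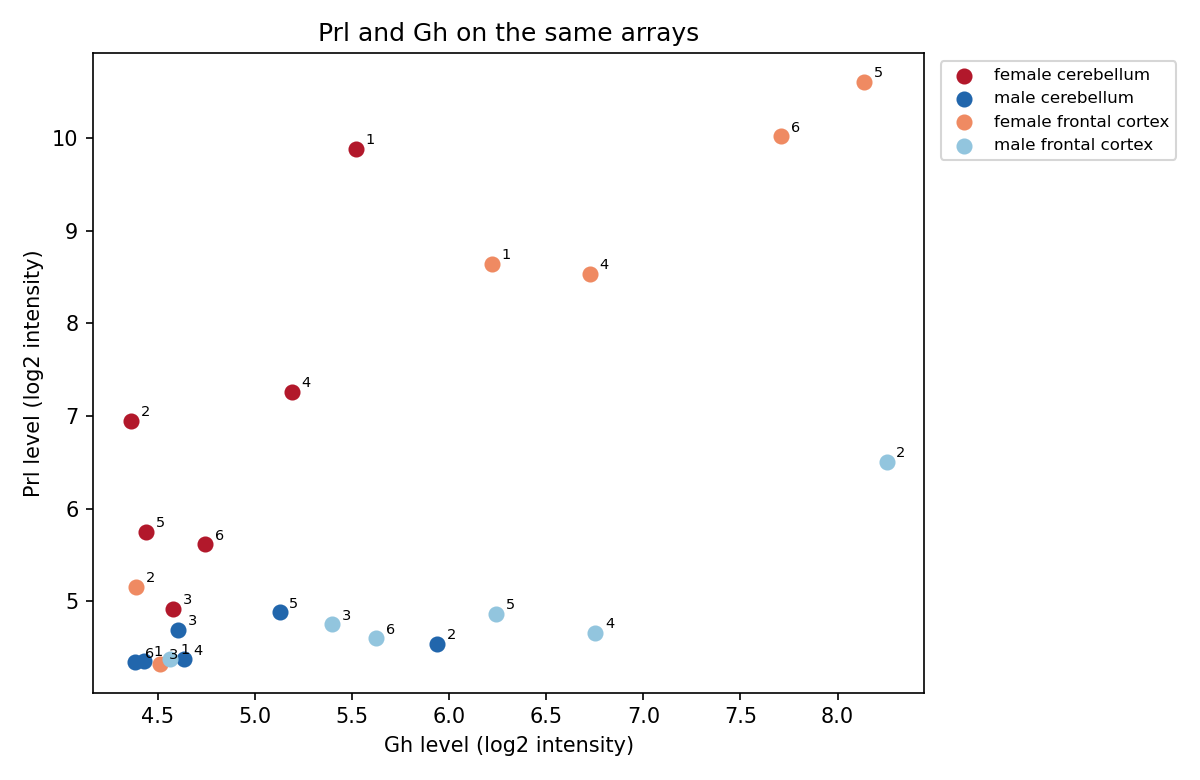
Level of Prl against level of Gh (both log2 intensity) on each of the 24 arrays, coloured by group and numbered by replicate. Female frontal cortex 5 and 6 are high for both genes, male frontal cortex 2 is high for Gh at 8.25 with Prl at 6.50, and female cerebellum 1 is high for Prl at 9.89.

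Other pituitary hormones were detected on some arrays with bright Prl or Gh and not on others. Cga, the alpha subunit of the pituitary glycoprotein hormones, was detected on 2 arrays, female frontal cortex 5 at 178 units and male frontal cortex 2 at 84.4. The first of these had the highest Prl signal of all arrays and the second the highest Gh signal. Pomc, the precursor of corticotropin, was detected on 4 arrays, at 115.4 units in male frontal cortex 2, 91.1 in male frontal cortex 3, 79.9 in female frontal cortex 5 and 78.7 in female cerebellum 3. Lhb, of luteinizing hormone, was detected in female frontal cortex 5 (80.0 units) and female cerebellum 6 (78.8), and Fshb and Tshb on 0 arrays. Female cerebellum 3, where Pomc was detected, had Prl at 77.2 units and no detected Gh. None of these 5 hormones was detected in female cerebellum 1 (Prl at 1005 units) or in female frontal cortex 1, 4 and 6 (Prl at 475, 502 and 1108).

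Of the 14 pituitary markers on the list 11 had a named probe, 5 were detected on any array, and the 2 kept ones, the transcription factors Lhx3 and Gata2, did not pass between tissues or sexes. The summed level of the list ran from 269 to 285 units in female cerebellum, 265 to 279 in male cerebellum, 263 to 402 in female frontal cortex and 257 to 321 in male frontal cortex. Without the 2 arrays that detected Cga, a choice made after the data were seen, Gh remained lower in cerebellum (-0.98, adjusted p = 0.011) and the female excess of Prl in frontal cortex was 2.69 (adjusted p = 0.12). Arrays with bright Prl and no detected Cga stayed in that fit, so it is no test of pituitary RNA. Whether pituitary RNA has a part in the Prl and Gh signal was not tested.

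**Figure D5:**
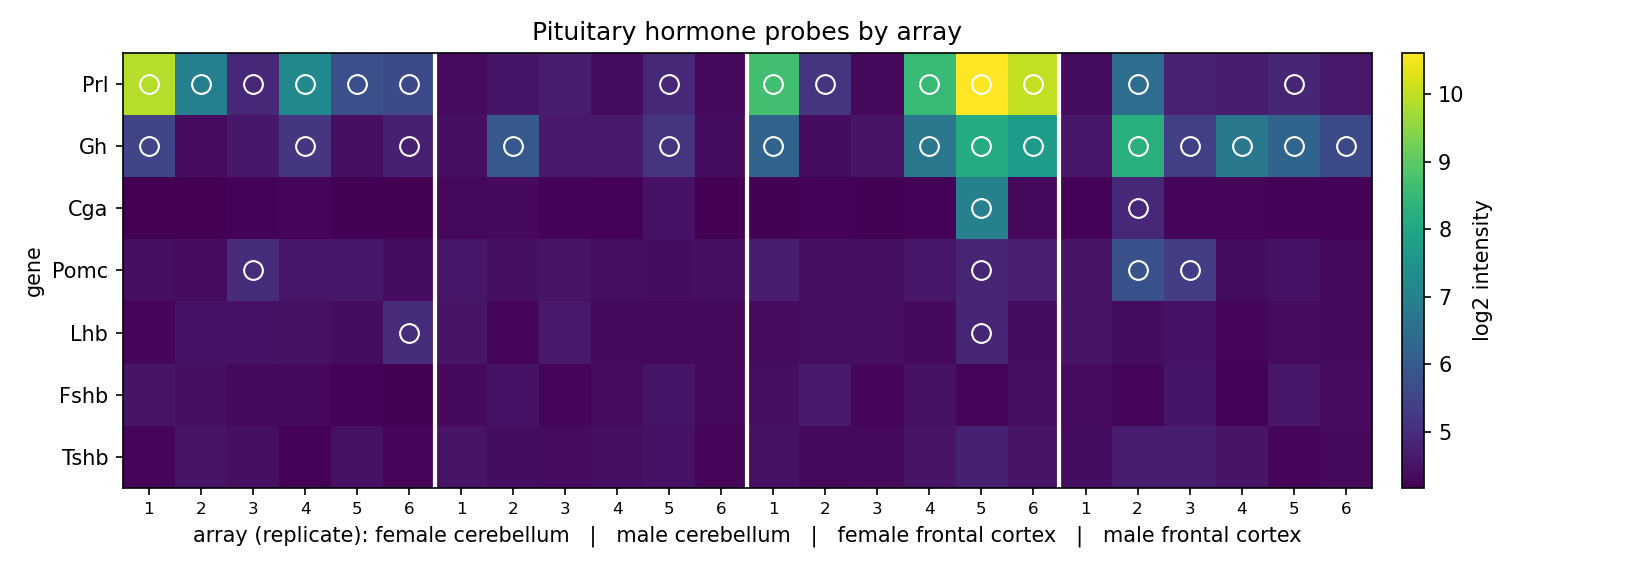
Level (colour, log2 intensity) of the pituitary hormone probes on each array, in columns by group and replicate, with white circles where a probe was detected. Prl and Gh are detected on 14 arrays each, Cga on 2, Pomc on 4, Lhb on 2, and Fshb and Tshb on 0.

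Among the receptors and signalling genes through which these hormones act, 15 were measured, of which 5 were higher and 5 lower in cerebellum over both sexes. Over all probes 36.8% were higher and 31.0% lower, so these counts are near the background, as was the median log2 difference of 0.03. Prlr, the prolactin receptor, was not analysed here, and Stat5b and Socs1 were detected on 0 arrays. Ghr, the growth hormone receptor, was lower in cerebellum (-0.51 ± 0.08 SE, adjusted p = 5.7e-06), and Igf2r, which binds proliferin as well as Igf2, was higher (0.30, adjusted p = 4.7e-06). Stat5a, a signal transducer of both receptors, was higher (0.62, adjusted p = 7.5e-08), as was the phosphatase gene Ptpn11 (0.44, adjusted p = 5.3e-09). Stat5a was detected on only 2 frontal cortex arrays of each sex, so the size of its difference depends on the detection limit. The feedback inhibitors Cish (-0.86, adjusted p = 1.4e-13) and Socs3 (-0.51, adjusted p = 1.5e-06) were lower, and so was the adaptor gene Grb10 (-0.49, adjusted p = 8.4e-07). None of the 15 passed between the sexes in either tissue.

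Genes of the insulin-like growth factor axis, several of them targets of growth hormone in liver, also differed in both directions. Of 8 measured genes 3 were higher and 3 lower in cerebellum, with a median of 0.05, again near the shares of all probes (36.8% and 31.0%). Igf1, the main growth hormone target, had a difference of -0.00 ± 0.07 (adjusted p = 0.96). Its binding proteins moved apart: Igfbp4 (-3.43, adjusted p = 5.3e-24) and Igfbp6 (-1.77, adjusted p = 3.6e-15) were lower, whereas Igfbp5 was higher (0.93, adjusted p = 2.9e-13). None of the 8 passed between the sexes in either tissue.

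The hypothalamic factors that control the pituitary, and their receptors, had 15 genes on the array, of which 7 were measured. Of these 6 were lower and 1 was higher in cerebellum, with a median of -1.97, against 31.0% lower and 36.8% higher over all probes. Sst, somatostatin, which inhibits growth hormone release and is made by cortical interneurons, was lower (-5.51, adjusted p = 1.4e-17). Its receptors Sstr2 (-4.26, adjusted p = 2.7e-22) and Sstr1 (-2.42, adjusted p = 2.4e-20) were lower too. Trh, which stimulates prolactin release, differed by -1.97 (adjusted p = 5.7e-10), and Drd2, the dopamine receptor that restrains lactotrophs, by -1.52 (adjusted p = 9.4e-09). Sstr1, Trh and Drd2 were detected on 0 cerebellum arrays of either sex, so the size of their differences depends on the detection limit. Crhr1, the receptor of corticotropin-releasing hormone, was higher (0.98, adjusted p = 1.3e-11). Ghrh and its receptor gene Ghrhr were detected on 0 arrays.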

How the data were processed

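Total RNA was amplified, labelled with biotin and hybridised to 24 arrays, per the labels. The deposited scanner table gives for each probe, per the file headers, a mean intensity over beads without normalization between arrays, its standard error, a bead number and a detection p-value. A deposited table of the authors holds intensity normalized between arrays, on a linear scale. Partek is named in the submitters' processing notes, with no role or version. No sample-level counts or depths exist for arrays, whose number limits the precision.

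The deposited intensity was turned into log2 levels with neqc in limma 3.58.1 (R 4.3.3), with negative controls inferred from the detection p-values and an offset of 16. The filter for detection (p under 0.05 on 6 or more arrays) left 21113 of 45281 probes. A mean per group was fitted to 24 arrays with lmFit and eBayes, with 20 residual degrees of freedom and 5.82 from the prior, and two-sided p-values were adjusted by Benjamini-Hochberg over all kept probes. The fit was tested on simulated data. Groups came from the labels, which name the animal of each array. That pairs the tissues, although deviations of an animal's arrays correlated at only -0.30 to 0.24, with 5 of 12 pairs over 0.1. Symbols were updated by Entrez ID from a RefSeq table (GRCm38.p6), where 34807 of 34885 probes with a single symbol were found. A further 18 had several symbols and 10378 had none here. Promoters came from RefSeq and were aligned with Biopython 1.88.

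A fold is a lower bound where the dimmer group was detected on at most 50% of its arrays and the brighter group on more. A list gene is represented by its brightest kept probe. All probes of the 5 genes are described, with up to 6 genes per list past the threshold by size of difference, and the closest of the 5 genes with the highest correlation to each. Genes given with other results, such as Igf1, were named after their values were seen. The 5 genes and the lists were chosen with earlier results of these data known. Alternatives concerned background, normalization, filter, array weights, batch, animal block and single arrays left out. Probe sequences and protein sequences were not used here.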

Additional observations from a re-analysis of the deposited data

Results flagged for a closer look

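Within the 24 combinations of probe and group tested, 3 arrays lay far from the other 5 of their group by Dixon's test, which flags about 1 in 20 groups by chance. Prl in male frontal cortex 2 had a level of 6.50 on the log2 scale, against a group median of 4.70; Cga and Pomc were also detected on this array. Prl2c3 in male cerebellum 3 had a level of 5.54, against a group median of 5.12 and a lowest female level of 5.66. Prl2c4 in female frontal cortex 1 had a level of 4.62, against a group median of 4.31, and was not detected there.

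The difference between the sexes on the Prl2c2 probe was larger in cerebellum than in frontal cortex by 0.71 ± 0.13 SE on the log2 scale. This contrast took part in the choice of the gene and is given as a description.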

How the results depend on the processing

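For 26 results, 396 values were computed under alternatives other than leaving out single arrays. Of these 344 stayed on the same side of the threshold or kept their size, 17 lost the call, 35 moved in size and 0 called values reversed. Among the 344, 10 differences that had not passed the threshold changed sign. All these counts score Prl2c2 and Prl2c4 by the threshold in males and in frontal cortex, although their values there are descriptions. The cerebellum sex differences of Prl2c2, Prl2c3 and Prl2c4 and the Prl2c2 contrast between tissues were 0.26, 0.30, 0.15 and 0.26 without background correction, 0.32, 0.36, 0.19 and 0.32 with normexp by maximum likelihood and an offset of 50, and 0.31, 0.36, 0.18 and 0.31 on the authors' values. These settings leave more background in the signal. Label batch a alone, with fewer arrays, gave 0.34 for Prl2c2 and 0.46 for Prl2c4 between tissues in males. This batch gave -0.79 (adjusted p = 0.39) for Gh over both sexes and 3.97 for Prl between the sexes in cerebellum. For Prl2c2 in males, a description, label batch b alone gave 0.20, and males alone and the animal as a replicate block gave 0.25 each. The block changed no call of Prl2c3, Prl or Gh, with adjusted p of 0.00048 for Gh over both sexes, 0.0056 in females and 0.013 in males. Gh in females lost its call under 3 of 15 alternatives and without female frontal cortex 5 or 6, and Gh in males under 8 of 15 alternatives and in 15 of 24 fits without 1 array (adjusted p from 0.016 to 0.16). Leaving out 1 array at a time gave 0.18 to 0.32 for Prl2c2 in males, 0.60 to 0.73 for Prl2c3, 0.49 to 0.55 for Prl2c4, -1.57 to -1.17 for Gh over both sexes, and 2.38 to 3.64 for Prl between the sexes in frontal cortex (adjusted p from 0.054 to 0.34).

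The share of probes past the threshold between the sexes in frontal cortex, 0.171%, was 0.0486% with no filter, 0.308% with array weights, 0.374% with label batch as a block, 0.0190% and 0.952% in batches a and b alone and 0.0332% with the tissue's arrays alone. It ran from 0.0568% to 0.497% with 1 array left out, moving by over 1.5 times without male frontal cortex 1, 2, 3, 4 or 5 or female frontal cortex 1, 3, 4 or 5. In cerebellum the share, 0.156%, was 0.0773% with no filter, 0.00709% with detection on all 24 arrays, 0.275% with array weights, and 0.0758% and 0.711% in batches a and b alone. With no filter, which tests 45281 probes, the shares between tissues were 27.9% in males and 33.8% over both sexes. The cause of the other shifts was not tested. With detection required on all 24 arrays 14107 probes were left, none of them of the 5 genes. The proliferin signals lie near the detection limit, which limits what can be seen in frontal cortex.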
